A study of Mus musculus with 23 samples.

Results

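The genotype effect on the late response to lipopolysaccharide (LPS) was measured as a difference of differences in RNA abundance. In mouse bone marrow-derived macrophages, cells that are grown in culture from bone marrow precursors, the LPS change at the time point labelled T32 was taken in libraries labelled Stk40 knockout (KO), and the same change in libraries labelled wild type (WT) was subtracted from it. This quantity is called the interaction below, in log2 units of the read count, and it equals the KO minus WT difference at T32 less the KO minus WT difference at T0. It used 12 of the 23 libraries of the series: 3 KO-labelled and 3 WT-labelled libraries exposed to LPS at T32, and 3 KO-labelled and 3 WT-labelled untreated libraries at T0. Libraries from LPS at T6 and T16 entered the fit only for the spread, and their values are given for comparison. The labels give neither the unit of the times, the kind of Stk40 allele, nor the age or number of the mice. All 4 groups were RNA libraries of the same cell type, made with the same kit. No label says that replicates came from separate mice or cultures, so each p-value speaks for the variation among these libraries, part of which may be technical.

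LPS is sensed by Toll-like receptor 4, which starts an early wave of NF-kB-driven inflammatory genes and, through a second adaptor and the factor IRF3, the secretion of interferon beta. Interferon then acts back on the cells through its receptor and switches on a broad set of antiviral genes, some of which are already transcribed at a low level before any stimulus. Later phases of the response are shaped by feedback regulators, by secreted growth and matrix factors and by metabolic change. Stk40 encodes a pseudokinase that binds COP1, a ubiquitin ligase whose known substrates include transcription factors of the C/EBP, AP-1 and ETS families.

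Stk40 itself, on chromosome 4 at 126103957 to 126141029 in GRCm38, had 107, 106 and 102 CPM (read count scaled to library size) in the KO-labelled libraries at T32, against 69.1, 80.5 and 99 CPM in the WT-labelled libraries at T32. At T0 it had 51.7, 61.3 and 56.5 CPM in the KO-labelled libraries, against 52.5, 52.2 and 39.7 CPM in the WT-labelled ones. Stk40 RNA was thus not lower in the libraries labelled KO, its interaction was 0.11 ± 0.21 (edgeR adjusted p = 0.98; ± gives the SE of a fitted log2 value throughout), and counts over whole genes do not show whether part of it was deleted. Every direction below is one between labels.

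Total counts ran from 20224744 to 39113183 per library. Genes of the macrophage identity list summed to 21900 to 38500 CPM in the 12 libraries, and markers of T, B and NK cells to at most 15.1 CPM. Stromal and endothelial markers summed to 155 to 400 CPM in KO-labelled and 104 to 598 CPM in WT-labelled libraries at T32. At T0 they summed to 107 to 153 CPM and 71.6 to 372 CPM. Megakaryocyte and platelet markers summed to 285 to 347 CPM in KO-labelled and 177 to 311 CPM in WT-labelled libraries at T32. At T0 these reached 338 to 440 CPM and 370 to 499 CPM. Neutrophil and granulocyte precursor markers summed to 496 to 601 CPM in KO-labelled and 309 to 410 CPM in WT-labelled libraries at T32, and to 784 to 948 CPM in KO-labelled and 455 to 781 CPM in WT-labelled libraries at T0, with 0 of 15 genes absent from any of the 4 groups. Mitochondrial genes took 0.35% of the counts in KO T0 replicate 1, against 1.38% to 1.82% in the other T0 libraries, and 0.24% to 0.53% at T32. RNA of Y-linked genes was present in WT T0 replicate 2 (103 CPM) and WT T32 replicate 3 (109 CPM), whereas the 6 KO-labelled libraries all held Xist RNA. The part of these differences in the results was not tested, and values without each library are given where they matter. In cultured populations, fewer cells of a type and less RNA per cell cannot be told apart.

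The test of the interaction called few genes. Of 12913 protein-coding genes tested, 14 had a called positive interaction (0.108%) and 23 a called negative one (0.178%), where called means an adjusted p under 0.05 in edgeR's quasi-likelihood test over all 15782 genes of any type tested. Over all types 61 genes were called (0.387%), of which 37 were protein-coding (0.287%). At an unadjusted p under 0.05 there were 386 positive and 611 negative ones. The counts depended on the fit: DESeq2 called 71 positive and 96 negative protein-coding genes, and leaving out 1 library gave 5 (without KO T32 replicate 2) to 18 positive and 12 (without WT T0 replicate 3) to 32 negative ones. A gene that was not called is not shown to respond alike. By contrast, LPS at T32 against T0 was called for 5187 protein-coding genes in the KO-labelled libraries (40.2%; 18.8% higher and 21.4% lower) and for 5913 in the WT-labelled ones (45.8%; 22.6% higher and 23.2% lower). KO against WT was called for 742 at T32 (5.75%; 3.36% higher and 2.39% lower) and for 274 at T0 (2.12%; 2% higher). The largest positive interactions among the named genes were those of Tspan13, Cd200, Htr2b, Rhov and Pdpn. On the negative side, 6 of the 23 belonged to the interferon response list: Slfn1, Slfn4, Ifi44, Irf7, Zbp1 and Oasl2.

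**Figure D1:**
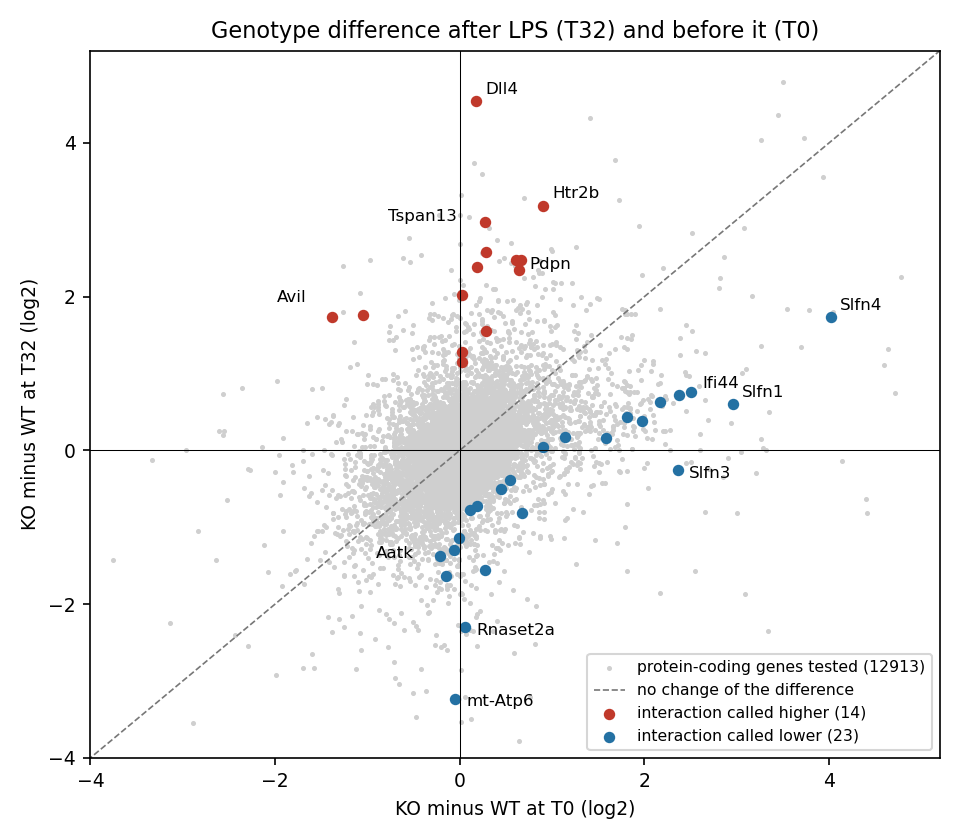
Each point is a protein-coding gene, placed by its KO minus WT difference at T0 (x, log2) and at T32 (y, log2), so that the vertical distance from the dashed line is the interaction. Red points are the 14 genes with a called positive interaction and blue points the 23 with a called negative one, grey points are the genes tested, and 22 of 12913 genes lie outside the axes.

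Positive and negative interactions differed in where the genotypes were apart. These genes were selected by the interaction from the same 12 libraries, so their differences at T32 and T0 follow in part from that selection. They are given as a description. For all 14 positive genes KO against WT was called at T32 and not at T0. Over all protein-coding genes 3.36% were called higher at T32 and 2% at T0. The KO minus WT difference of the 14 had a median of 2.37 at T32 and 0.23 at T0. The 23 negative genes fell into 12 that were called higher in the KO-labelled libraries at T0, of which 3 were called at T32 as well, and 11 that were called at T32 only, all of them lower in the KO-labelled libraries there. The median KO minus WT difference of the 12 was 0.40 at T32 and 2.07 at T0, and that of the 11 was −1.30 at T32 and 0.06 at T0.

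Among the 14 positive genes, LPS was called higher than T0 in 10 in the KO-labelled libraries and in 3 in the WT-labelled ones. In the KO-labelled libraries 0 were called lower than T0, against 7 in the WT-labelled ones, and 3 of the 14 moved in opposite called directions. Over all protein-coding genes 18.8% were called higher and 21.4% lower in KO-labelled libraries, against 22.6% and 23.2% in WT-labelled ones. A positive interaction is by definition a more positive LPS change in KO-labelled libraries, so this contrast follows in part from the selection. The largest interaction among genes of at least 5 CPM was that of Tspan13, which encodes a tetraspanin, a membrane protein with several spans. It had 40.5, 56.3 and 54.1 CPM in KO-labelled libraries at T32, against 6.61, 5.68 and 6.97 CPM in WT-labelled libraries at T32. At T0 it had 30.3, 30.5 and 39.2 CPM in KO-labelled libraries, against 25.3, 25.5 and 31.7 CPM in WT-labelled ones. The genotypes overlapped at T0 and lay far apart at T32. Tspan13 rose with LPS by 0.60 in the KO-labelled libraries and fell by 2.10 in the WT-labelled ones. The interaction was 2.70 ± 0.25 (edgeR adjusted p = 1.8e-05).

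Several other positive genes encode proteins of the cell surface, as do negative genes such as Lair1 and Clec5a. Cd200, the ligand of an inhibitory receptor on myeloid cells, had 22.5, 32.9 and 27.4 CPM in KO-labelled against 6.13, 3.49 and 4.18 CPM in WT-labelled libraries at T32. At T0 its values overlapped, with 7.28, 2.22 and 4.54 CPM in KO-labelled against 4.42, 3.37 and 3.88 CPM in WT-labelled libraries. Its interaction was 2.30 ± 0.41 (edgeR adjusted p = 0.014), with an LPS rise of 2.55 in KO-labelled libraries and an uncalled 0.24 in WT-labelled ones. It lost its call when only the 12 libraries were fitted (edgeR adjusted p = 0.055), as did Htr2b (0.058). Htr2b, a serotonin receptor, had 30.3, 44.9 and 36.2 CPM in KO-labelled against 5.78, 1.97 and 4.54 CPM in WT-labelled libraries at T32, and 16, 11.7 and 10.3 CPM in KO-labelled against 6.4, 4.7 and 9.16 CPM in WT-labelled libraries at T0. The KO-labelled libraries of Htr2b were above the WT-labelled ones at both times, and the gap was wider at T32, with an interaction of 2.28 ± 0.41 (edgeR adjusted p = 0.014). Reads of Htr2b overlap exons of Psmd1 on the other strand (mean 83.1 CPM), which these libraries cannot separate. Without WT T0 replicate 3 or KO T32 replicate 2 the call of Htr2b was lost (1.99 and 2.12; edgeR adjusted p = 0.061 and 0.053).

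Pdpn encodes podoplanin, a mucin-like glycoprotein that binds the platelet receptor CLEC-2. It had 163, 170 and 157 CPM in KO-labelled and 35.2, 19.1 and 33.4 CPM in WT-labelled libraries at T32. At T0 it had 33.9, 27.1 and 37.6 CPM in KO-labelled and 20.6, 20.3 and 23.5 CPM in WT-labelled libraries, so that the genotypes were separate at both times. Its LPS change was a rise of 2.31 in KO-labelled libraries and an uncalled 0.44 in WT-labelled ones, and the interaction was 1.87 ± 0.26 (edgeR adjusted p = 0.0019). Ccr1, a receptor for inflammatory CC chemokines, had 182, 227 and 207 CPM in KO-labelled against 85.2, 74.8 and 93.7 CPM in WT-labelled libraries at T32, while its values overlapped at T0 (50, 30 and 47 CPM in KO-labelled against 38.2, 44.1 and 42.1 CPM in WT-labelled libraries). Ccr1 rose with LPS in both genotypes, by 2.28 in KO-labelled and 1.03 in WT-labelled libraries, with an interaction of 1.25 ± 0.22 (edgeR adjusted p = 0.014). Tspan13, Pdpn, Ccr1 and Aqp9 kept a call under each of the 21 alternative settings that gave them a value.

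Rhov, an atypical small GTPase, had 33.2, 43.2 and 36.3 CPM in KO-labelled against 8.19, 4.43 and 9.08 CPM in WT-labelled libraries at T32, and 68.3, 40.3 and 64.3 CPM in KO-labelled against 54.1, 35.8 and 61.4 CPM in WT-labelled libraries at T0. Its difference with LPS was −0.62 in KO-labelled libraries and was not called, whereas it fell by 2.81 in WT-labelled ones, and the interaction was 2.19 ± 0.40 (edgeR adjusted p = 0.014). That call was lost without WT T0 replicate 3 or KO T32 replicate 2 (2.02 and 2.08; edgeR adjusted p = 0.061 and 0.057). Id2, an inhibitor of basic helix-loop-helix transcription factors, had 213, 247 and 243 CPM in KO-labelled and 114, 87.6 and 114 CPM in WT-labelled libraries at T32, and overlapped at T0. F10, the precursor of coagulation factor X, had 91.9, 93 and 138 CPM in KO-labelled and 44.2, 31.8 and 34.6 CPM in WT-labelled libraries at T32, and rose with LPS in both genotypes. The interactions were 1.13 ± 0.22 for Id2 and 1.26 ± 0.27 for F10 (edgeR adjusted p = 0.019 and 0.043). Single libraries decided both calls: that of Id2 was lost without 5 of the 12 libraries and that of F10 without 9 of them, with adjusted p up to 0.081 and 0.15.

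**Figure D2:**
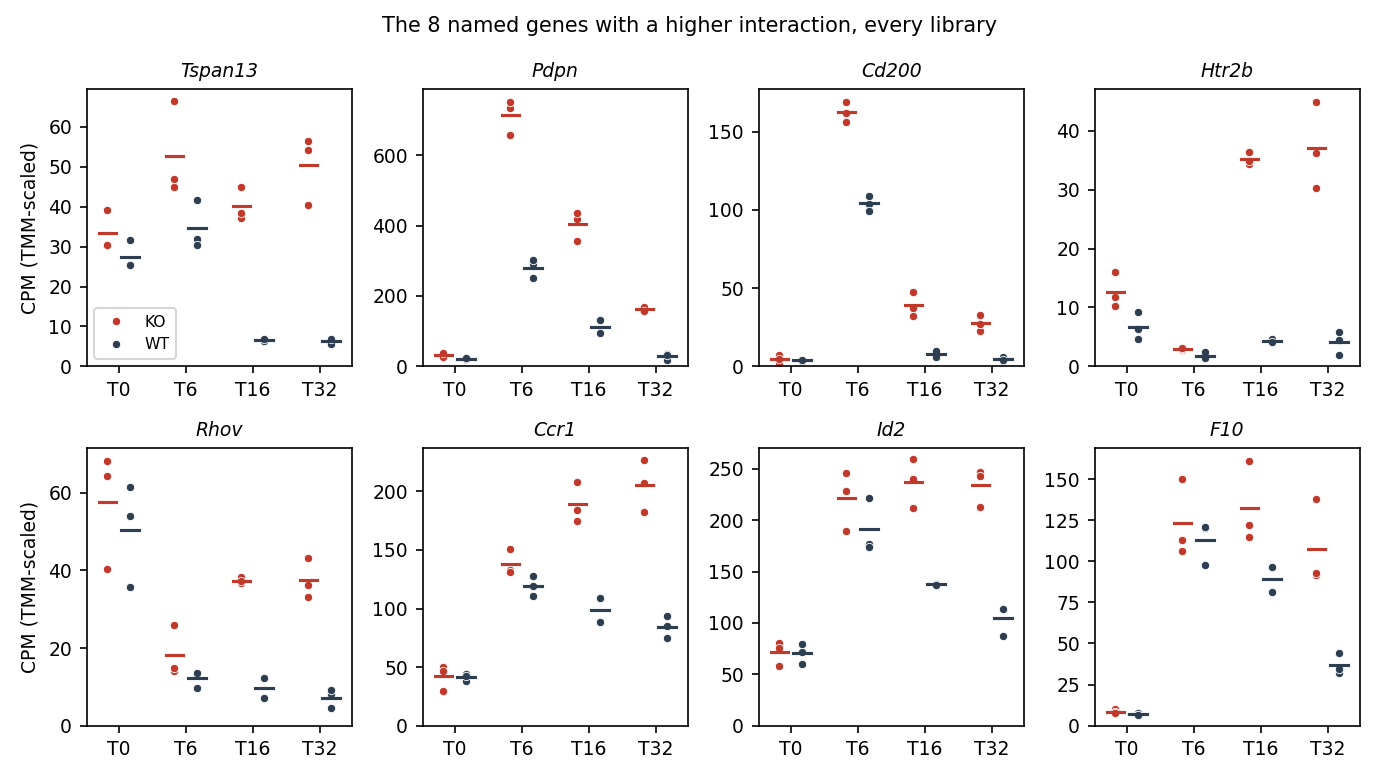
TMM-scaled CPM of the 8 named genes with a positive interaction in every library, by time label (x), with KO-labelled libraries in red at the left and WT-labelled ones in dark blue at the right of each pair and short lines for the group means. WT T16 has 2 libraries and the other groups 3, and at T32 the KO-labelled libraries of all 8 genes lie above the WT-labelled ones.

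The other 6 positive genes averaged under 5 CPM and are named here after their values were seen. Il1r1, the signalling receptor of interleukin 1, had 7.03, 10.5 and 7.69 CPM in KO-labelled against 1.69, 0.984 and 2.33 CPM in WT-labelled libraries at T32 (1.71 ± 0.34, edgeR adjusted p = 0.024). Pgf, placental growth factor, had 2.29, 2.95 and 2.33 CPM in KO-labelled against 0.511, 0.492 and 0.324 CPM in WT-labelled libraries at T32. Pde5a, a cyclic GMP phosphodiesterase, had 11.3, 11.3 and 11 CPM in KO-labelled against 3.9, 2.15 and 2.17 CPM in WT-labelled libraries at T32. Aqp9, a channel for water and glycerol, had 1.87, 1.75 and 2.41 CPM in KO-labelled against 0.673, 0.38 and 0.746 CPM in WT-labelled libraries at T32, and the reverse order at T0, with 0.653, 0.623 and 0.654 CPM in KO-labelled against 1.27, 1.18 and 1.55 CPM in WT-labelled libraries. It was one of the genes that rose in KO-labelled libraries, by 1.64, and fell in WT-labelled ones, by 1.17. Avil, an actin-binding protein, was counted 10, 8 and 10 times in KO-labelled and 6, 3 and 1 times in WT-labelled libraries at T32, and its exons overlap those of Tsfm. Dll4, a Notch ligand, was counted 10, 11 and 7 times in KO-labelled and 0, 1 and 0 times in WT-labelled libraries at T32, and at T0 it was counted 9, 21 and 19 times in KO-labelled and 8, 15 and 24 times in WT-labelled ones. The call of Dll4 (edgeR adjusted p = 0.025) rests on those few counts, and no fold is given for it. Calls of Avil, Pde5a and Pgf were lost without 10, 11 and 10 of the 12 libraries (adjusted p up to 0.14), that of Dll4 without 6 and that of Il1r1 without 5.

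KO against WT at T6 and T16 was compared in libraries of which none belonged to the T32 contrast. At T16 the KO minus WT difference was called with the same sign for 11 of the 14 and had a median of 1.90. At T6 it was called for 2 of the 14, Pdpn and Pgf, and the median was 0.60. The background was 4.74% of protein-coding genes called higher at T16 and 0.24% at T6. Cd200 shows the time course: it had 156, 162 and 169 CPM in KO-labelled and 104, 99.5 and 109 CPM in WT-labelled libraries at T6, then 37.4, 32.2 and 47.8 CPM in KO-labelled and 9.66 and 6.31 CPM in WT-labelled libraries at T16. Htr2b followed another course, at 2.71, 2.94 and 3.05 CPM in KO-labelled and 1.63, 1.4 and 2.45 CPM in WT-labelled libraries at T6, then 34.4, 34.9 and 36.4 CPM in KO-labelled and 4.65 and 4.13 CPM in WT-labelled libraries at T16. The interaction was called at T16 for Tspan13 (2.32 ± 0.27, edgeR adjusted p = 0.00073) and Aqp9 (3.20 ± 0.41, edgeR adjusted p = 0.0011). Over all protein-coding genes, 0.031% had a called positive interaction at T16. The interactions at T6, T16 and T32 share the T0 libraries.

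The 12 negative genes that were higher in untreated KO-labelled libraries included the 6 of the interferon response list. A negative interaction is by definition a smaller log2 change with LPS in the KO-labelled libraries. Over these 12 genes the median change was 1.34 in KO-labelled and 2.85 in WT-labelled libraries. Slfn1, a Schlafen family member, had 507, 526 and 507 CPM in KO-labelled against 329, 292 and 397 CPM in WT-labelled libraries at T32. At T0 it had 189, 115 and 166 CPM in KO-labelled against 24, 19 and 17.5 CPM in WT-labelled libraries. The KO-labelled libraries were above the WT-labelled ones at both times, by 0.60 at T32, which was not called (edgeR adjusted p = 0.076), and by 2.96 at T0. LPS raised Slfn1 by 1.71 in KO-labelled and 4.07 in WT-labelled libraries, for an interaction of −2.36 ± 0.28 (edgeR adjusted p = 0.00047), the lowest p among negative genes.

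Ifi44 and Ms4a4c followed the same course. Ifi44, an interferon-induced protein, had 479, 691 and 570 CPM in KO-labelled against 312, 351 and 365 CPM in WT-labelled libraries at T32, and 263, 136 and 181 CPM in KO-labelled against 41.8, 31.9 and 28.4 CPM in WT-labelled libraries at T0. Ms4a4c, a membrane protein of the MS4A family, had 1050, 1460 and 1310 CPM in KO-labelled against 690, 699 and 926 CPM in WT-labelled libraries at T32, and 246, 182 and 221 CPM in KO-labelled against 39.3, 51.9 and 33.9 CPM in WT-labelled libraries at T0. Both were above the WT-labelled libraries in all KO-labelled ones at both times, and the log2 difference was smaller at T32, with interactions of −1.75 ± 0.29 and −1.65 ± 0.28 (edgeR adjusted p = 0.0098 each). Slfn4, another Schlafen gene, kept the widest difference, at 6020, 7020 and 5590 CPM in KO-labelled against 1570, 1380 and 2650 CPM in WT-labelled libraries at T32, and 383, 400 and 786 CPM in KO-labelled against 36, 24.9 and 35.6 CPM in WT-labelled libraries at T0. Its interaction of −2.29 ± 0.49 (edgeR adjusted p = 0.042) lost its call without 8 of the 12 libraries (adjusted p up to 0.13).

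For 4 other genes the genotypes did not differ by a call at T32. Zbp1, a sensor of Z-form nucleic acids that can trigger cell death, had 659, 652 and 631 CPM in KO-labelled against 529, 547 and 655 CPM in WT-labelled libraries at T32, and 316, 257 and 280 CPM in KO-labelled against 90.7, 128 and 64.4 CPM in WT-labelled libraries at T0. Oasl2, of the oligoadenylate synthetase-like family, had 1020, 1080 and 1000 CPM in KO-labelled against 922, 884 and 953 CPM in WT-labelled libraries at T32, and 805, 745 and 835 CPM in KO-labelled against 328, 438 and 313 CPM in WT-labelled libraries at T0. Of these, Zbp1 overlapped between the genotypes at T32 and Oasl2 did not, and both were apart at T0. Irf7, the transcription factor that amplifies interferon production, had 4290, 4490 and 4470 CPM in KO-labelled against 3070, 2730 and 4420 CPM in WT-labelled libraries at T32, and 2070, 1360 and 1320 CPM in KO-labelled against 463, 451 and 301 CPM in WT-labelled libraries at T0. Ifi213, of the HIN-200 family of DNA-binding proteins, had 163, 211 and 159 CPM in KO-labelled against 124, 115 and 155 CPM in WT-labelled libraries at T32, and 72.5, 88.5 and 91.9 CPM in KO-labelled against 23.1, 28.1 and 21 CPM in WT-labelled libraries at T0. The KO-labelled libraries of Ifi213 lay above the WT-labelled ones at both times, while those of Irf7 overlapped at T32. In all 4 the log2 rise with LPS was larger in WT-labelled libraries, which a negative interaction implies. The interactions were −1.42 ± 0.26, −0.98 ± 0.17, −1.59 ± 0.33 and −1.37 ± 0.23 for Zbp1, Oasl2, Irf7 and Ifi213 (edgeR adjusted p = 0.014, 0.012, 0.039 and 0.0098). That of Irf7 lost its call without 7 of the 12 libraries (adjusted p up to 0.11), and exons of Irf7 overlap those of Phrf1 (mean 56.5 CPM).

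The remaining 4 of these 12 were Slfn3, Klra2, Lair1 and Clec5a. For them, too, KO against WT was not called at T32 (edgeR adjusted p = 0.75, 0.06, 0.91 and 0.062). Slfn3 had 13.6, 17.2 and 15 CPM in KO-labelled against 20.4, 14.4 and 19.9 CPM in WT-labelled libraries at T32, which overlapped, and 24.6, 9.45 and 11.2 CPM in KO-labelled against 2.47, 3.48 and 2.88 CPM in WT-labelled libraries at T0, where the KO-labelled libraries were above. Its difference with LPS was 0.01 in KO-labelled libraries and was not called, whereas it rose by 2.63 in WT-labelled ones, with an interaction of −2.62 ± 0.46 (edgeR adjusted p = 0.012). Klra2, of the Ly49 receptor family, had 96.7, 109 and 102 CPM in KO-labelled against 51.9, 70.5 and 76.4 CPM in WT-labelled libraries at T32, and 4.92, 4.12 and 7.71 CPM in KO-labelled against 1.34, 1.22 and 1.17 CPM in WT-labelled libraries at T0 (−1.54 ± 0.30, edgeR adjusted p = 0.024). Lair1, an inhibitory receptor for collagen, had 120, 122 and 119 CPM in KO-labelled against 110, 118 and 124 CPM in WT-labelled libraries at T32, and 80.9, 77.6 and 90.8 CPM in KO-labelled against 43.4, 49.1 and 41.5 CPM in WT-labelled libraries at T0 (−0.86 ± 0.15, edgeR adjusted p = 0.0098). Klra2 was higher in all KO-labelled libraries at both times, whereas Lair1 overlapped at T32. Clec5a, an activating lectin receptor of myeloid cells, had 10.8, 9.95 and 10.3 CPM in KO-labelled against 13.6, 14.1 and 13 CPM in WT-labelled libraries at T32, and 9.09, 11.5 and 11.4 CPM in KO-labelled against 7.3, 7.24 and 7.21 CPM in WT-labelled libraries at T0 (−0.95 ± 0.17, edgeR adjusted p = 0.014). In Clec5a the order of the genotypes was opposite at the 2 times, without overlap at either. Its call was lost without WT T0 replicate 3 or KO T32 replicate 2 (edgeR adjusted p = 0.051 and 0.057), with scaling by library totals (0.052) and with no filter on low counts (0.12). That of Lair1 was lost with no filter (edgeR adjusted p = 0.073), and that of Klra2 without 8 of the 12 libraries (adjusted p up to 0.096). The Schlafen, HIN-200 and Ly49 families hold near-identical copies among which the authors' counting could split reads, so values of Slfn1, Slfn3, Slfn4, Ifi213 and Klra2 are uncertain.

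**Figure D3:**
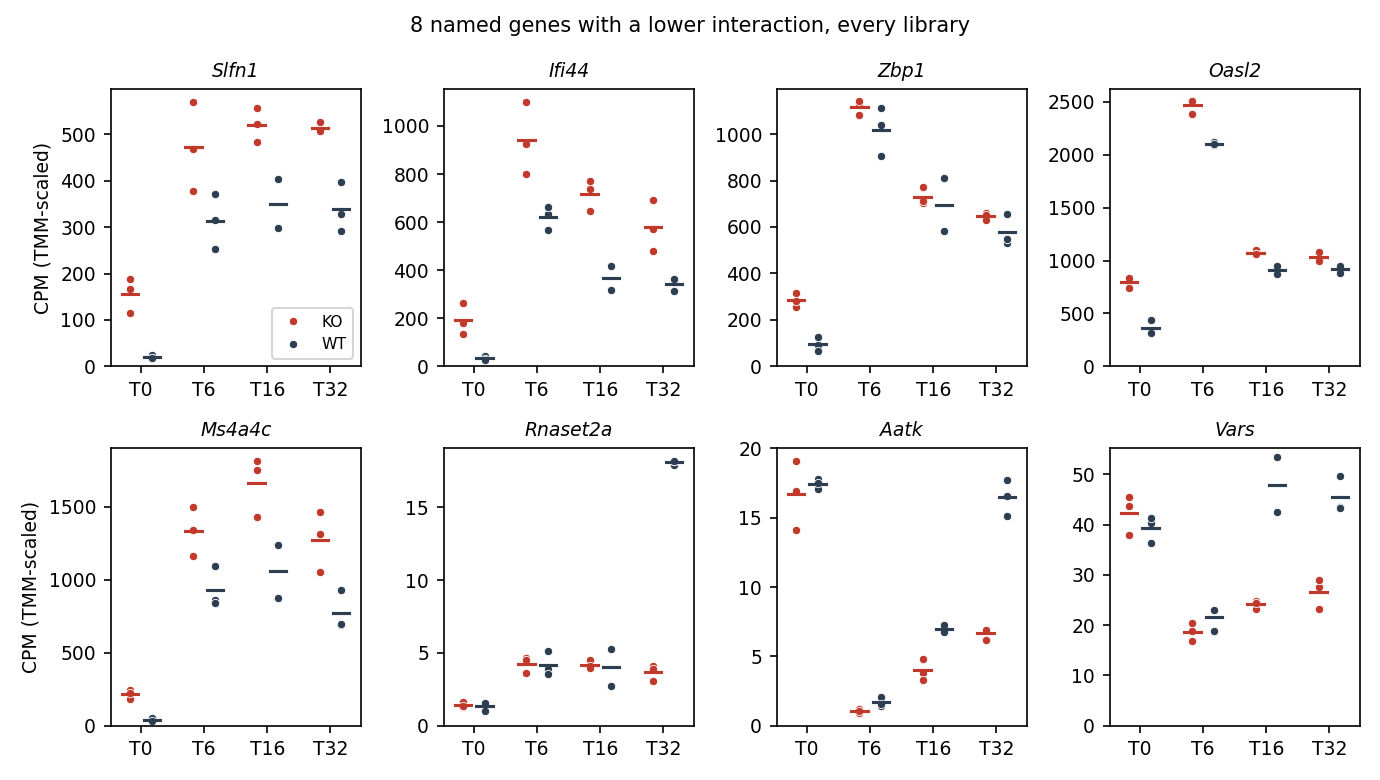
TMM-scaled CPM of 8 named genes with a negative interaction in every library, by time label (x), KO-labelled libraries in red at the left and WT-labelled ones in dark blue at the right of each pair, short lines for group means. Slfn1, Ifi44, Zbp1, Oasl2 and Ms4a4c differ most in ratio at T0, whereas the KO-labelled libraries of Rnaset2a, Aatk and Vars lie below the WT-labelled ones at T32.

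The interferon response list holds 47 tested protein-coding genes, and 6 of them had a called negative interaction, against 0.178% of protein-coding genes, and 0 a positive one. This list was chosen with earlier results of these data known. All 47 values were below 0, against 6933 of 12913 protein-coding genes, with a median of −0.91, against −0.03 over the 12913. Summed over the 47 genes, the list reached 47500 to 58000 CPM in KO-labelled and 24600 to 40200 CPM in WT-labelled libraries at T32, and 14500 to 19700 CPM in KO-labelled and 4630 to 7420 CPM in WT-labelled libraries at T0. The ranges did not overlap at either time. LPS was called higher than T0 for 44 of the 47 in KO-labelled libraries, against 18.8% of protein-coding genes, and for 46 in WT-labelled ones, against 22.6%. The median LPS change was 1.33 in KO-labelled and 2.35 in WT-labelled libraries, in log2 units. The log2 change was thus smaller in the KO-labelled libraries, whereas the summed CPM given above differed more between T32 and T0 in them. KO against WT was called higher for 10 of the 47 at T32, against 434 of 12913 protein-coding genes (3.36%), and for 43 of the 47 at T0, against 258 of 12913 (2%). The other members named here were chosen after their values were seen. Values nearest to 0 included those of the guanylate-binding gene Gbp2 (−0.08 ± 0.44) and of the transcription factor subunit Irf9 (−0.22 ± 0.14). Stat2, a transcription factor subunit that binds IRF9, was at −1.07 ± 0.24 and was not called (edgeR adjusted p = 0.051).

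**Figure D4:**
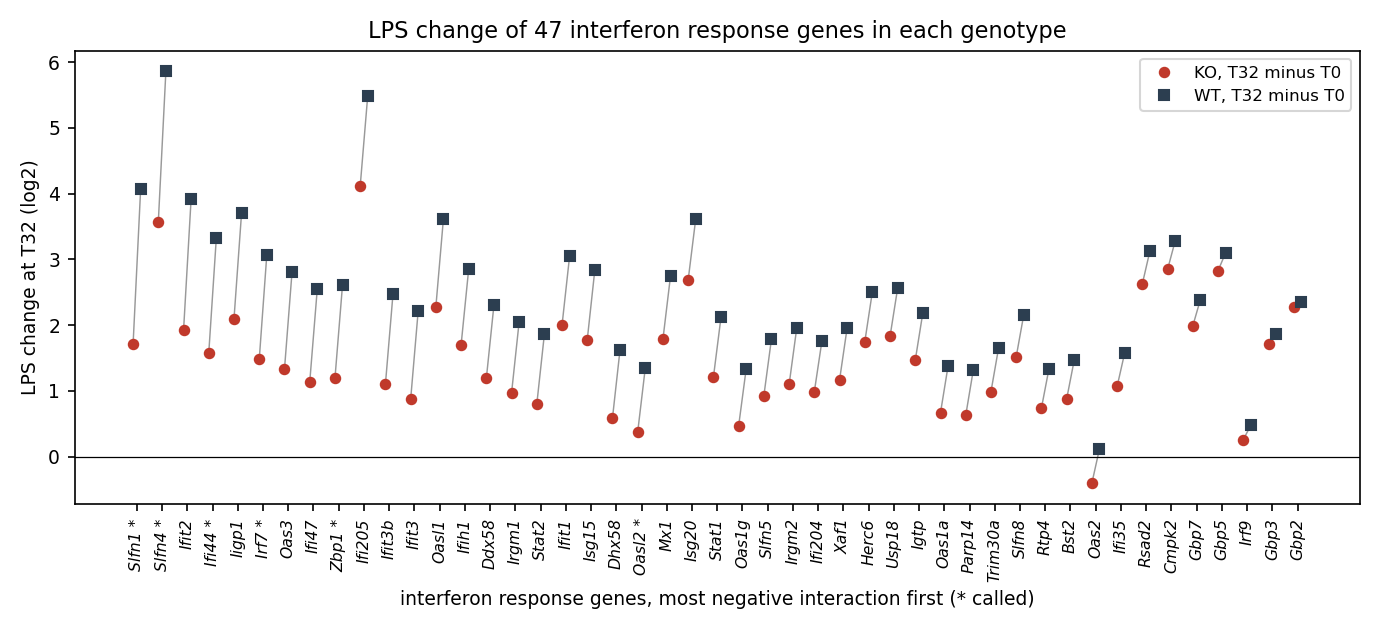
LPS change at T32 against T0 (y, log2) of the 47 interferon response genes in KO-labelled (red circles) and WT-labelled libraries (dark blue squares), joined by a line for each gene and ordered by interaction. Every circle lies below its square, and asterisks mark the 6 genes with a called interaction.

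At the other LPS times the interaction had the same sign for 21 of the 23 negative genes, both at T6 and at T16. The interaction at T6 was called for 9 of the 23 negative genes and at T16 for 5, with Slfn1 at −2.37 ± 0.28 and −2.38 ± 0.29 (edgeR adjusted p = 0.0009 and 0.00078). Over all protein-coding genes, 0.108% had a called negative interaction at T6 and 0.0542% at T16. These interactions use the same T0 libraries as that at T32, so a difference at T0 enters the sign of each of them. KO against WT within T6 or T16 uses none of the 12 libraries, though no label says that these came from other mice or cultures. KO against WT was called with the sign of T32 for 0 of the 23 negative genes at T6 and for 8 at T16. Of those at T16, Slfn4, Ifi44, Klra2 and Ifi213 were higher in the KO-labelled libraries, and Vars, Pak1, Rpl6 and Aatk lower. Over all protein-coding genes 0.24% were called higher at T6 and 4.74% at T16. These shares are a background for the higher genes only, and the shares called lower are not given here. Over the interferon list the median KO minus WT difference was 0.33 at T6 and 0.56 at T16.

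The 11 negative genes that were called at T32 only were lower in the KO-labelled libraries after LPS. Rnaset2a, an acid ribonuclease of the T2 family, had 4.13, 3.06 and 3.87 CPM in KO-labelled against 17.9, 18.2 and 18.2 CPM in WT-labelled libraries at T32, and 1.61, 1.25 and 1.38 CPM in KO-labelled against 1.51, 1.58 and 1.02 CPM in WT-labelled libraries at T0. Its values overlapped at T0 and lay far apart at T32, and it rose with LPS by 1.38 in KO-labelled and 3.73 in WT-labelled libraries (interaction −2.36 ± 0.32, edgeR adjusted p = 0.0017). At T16, KO-labelled libraries had 4.52, 4.09 and 3.93 CPM and WT-labelled ones 2.75 and 5.29 CPM, and these overlapped. The genome holds a near-identical copy, Rnaset2b, so this value is uncertain. Aatk, a kinase of the lemur tail family, had 6.91, 6.92 and 6.15 CPM in KO-labelled against 16.6, 17.7 and 15.1 CPM in WT-labelled libraries at T32, and 16.9, 19.1 and 14.1 CPM in KO-labelled against 17.8, 17.1 and 17.5 CPM in WT-labelled libraries at T0. At T6 Aatk was at 1.2, 0.883 and 1.09 CPM in KO-labelled and 1.4, 2.09 and 1.53 CPM in WT-labelled libraries. Its KO-labelled libraries at T32 lay below all others of T32 and T0, whose ranges overlapped (interaction −1.24 ± 0.22, edgeR adjusted p = 0.014).

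Metabolic and transport genes were also in this class. Vars, the valyl-tRNA synthetase, had 27.7, 23.2 and 28.9 CPM in KO-labelled against 43.5, 49.8 and 43.4 CPM in WT-labelled libraries at T32, and overlapped at T0 (43.7, 45.6 and 38 CPM in KO-labelled against 40.3, 41.4 and 36.3 CPM in WT-labelled libraries). It fell with LPS by 0.67 in KO-labelled libraries and was not called in WT-labelled ones (0.21), with an interaction of −0.89 ± 0.18 (edgeR adjusted p = 0.028) that lost its call without 6 of the 12 libraries (adjusted p up to 0.10). Acss2, which makes acetyl-CoA from acetate, had 4.09, 6.45 and 5.22 CPM in KO-labelled against 6.75, 9.55 and 11.4 CPM in WT-labelled libraries at T32, and 10.3, 8.21 and 7.4 CPM in KO-labelled against 5.21, 6.74 and 4.4 CPM in WT-labelled libraries at T0, so the order of the genotypes was opposite at T32 and T0 (−1.48 ± 0.29, edgeR adjusted p = 0.025). The same was true of Slc12a7, a potassium-chloride cotransporter, with 64.5, 62.7 and 58.1 CPM in KO-labelled against 80.7, 89.5 and 92.5 CPM in WT-labelled libraries at T32, and 69.8, 66.2 and 64.9 CPM in KO-labelled against 55.7, 50.2 and 41.3 CPM in WT-labelled libraries at T0 (−0.95 ± 0.17, edgeR adjusted p = 0.014). Acss2 lost its call without 7 of the 12 libraries (adjusted p up to 0.091) and overlaps Gss on the other strand. Pak1, a p21-activated kinase of the actin cytoskeleton, is named after its values were seen. It had 51.5, 48.5 and 43.3 CPM in KO-labelled against 69.8, 92.9 and 73.2 CPM in WT-labelled libraries at T32 and lost its call without 9 of the 12 libraries (adjusted p up to 0.13).

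The other 5 of the 11 were Rpl6, Rpl7, Rps2, Aldoart2 and mt-Atp6, of which Rpl6 was selected by rule and the other 4 are named after their values were seen. Rpl6, a protein of the large ribosomal subunit, had 2.6, 2.11 and 2.47 CPM in KO-labelled against 6.08, 6.93 and 5.48 CPM in WT-labelled libraries at T32, and overlapped at T0 (interaction −1.16 ± 0.25, edgeR adjusted p = 0.040). Rpl7 and Rps2 had 1.35 to 1.45 CPM and 1.22 to 1.99 CPM in KO-labelled against 3.04 to 3.11 CPM and 4.74 to 5.15 CPM in WT-labelled libraries at T32. Reads were counted where they aligned uniquely to the gene model, per the file headers, and ribosomal protein genes have many processed copies in the genome. Aldoart2, an aldolase A retrogene, had 1.33 to 1.70 CPM in KO-labelled against 4 to 5.09 CPM in WT-labelled libraries, and mt-Atp6, a mitochondrial subunit of ATP synthase, had 0.42 to 0.862 CPM in KO-labelled against 3.92 to 8.79 CPM in WT-labelled libraries at T32. Reads of mt-Atp6 also share an overlap with mt-Co3. All 5 have near copies that could split their reads and are uncertain, and each call was lost without at least 3 of the 12 libraries.

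Called genes of other types were all negative. Of 2869 tested genes that are not protein-coding, 24 were called (0.837%): 21 processed pseudogenes, which are reverse-transcribed copies of mRNAs, 1 pseudogene, 1 transcribed unprocessed pseudogene and 1 lincRNA. Their KO minus WT difference had a median of −1.58 at T32 and 0.15 at T0, and 1 of the 24 was called at T0. The 24 were selected from these same libraries. Over the 1258 processed pseudogenes tested, 81.2% of the interactions were below 0 and the median was −0.63, against 53.7% and −0.03 over the protein-coding genes. Smaller pseudogene types leaned the same way in the interaction. The median was −0.65 over 51 unprocessed pseudogenes, with 76.5% below 0, and −0.43 over 60 transcribed processed pseudogenes, with 70% below 0. It was −0.15 over 31 transcribed unprocessed pseudogenes, with 61.3% below 0. Antisense RNAs and lincRNAs did not lean that way: the median was 0.15 over 331 antisense RNAs, with 38.7% below 0, and 0.12 over 414 lincRNAs, with 43% below 0. KO against WT had a median of −0.42 at T32, −0.05 at T16, 0.03 at T6 and 0.10 at T0 over the processed pseudogenes. It differed in the unprocessed pseudogenes, at −0.01 at T32 and 0.53 at T0, so the types were apart at different times. Over the transcribed processed pseudogenes it was −0.31 at T32 and 0 at T0. Processed pseudogenes took 0.618% to 0.644% of all counts in KO-labelled libraries at T32, against 0.843% to 0.907% in WT-labelled ones, and 0.483% to 0.563% in KO-labelled libraries at T0, against 0.540% to 0.579% in WT-labelled ones. Gm5835, chosen as an example after its values were seen, had 12.4, 9.4 and 10.5 CPM in KO-labelled and 34.4, 30.1 and 28.4 CPM in WT-labelled libraries at T32, and 17.8, 14.8 and 17.9 CPM in KO-labelled against 18.2, 21.1 and 19 CPM in WT-labelled libraries at T0. The part of this shift in the values of Rpl6, Rpl7, Rps2, Aldoart2, mt-Atp6 and Rnaset2a was not tested.

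Matrix remodelling and angiogenic factors had the highest median of the 26 pathway lists. Of 21 tested members 2 were called positive, Pdpn and Pgf, against 0.108% of protein-coding genes. The list was chosen with earlier results of these data known. Of the 21, 18 were above 0, against 5979 of 12913 protein-coding genes, and the median was 0.75, against −0.03. At T32, 9 of the 21 were called higher in the KO-labelled libraries, against 3.36% of protein-coding genes. The neutrophil collagenase Mmp8 had 109, 152 and 88.5 CPM in KO-labelled against 20.6, 15.8 and 20.4 CPM in WT-labelled libraries at T32, and 43.3, 36.8 and 29.5 CPM in KO-labelled against 16.6, 22.6 and 16.3 CPM in WT-labelled libraries at T0, with an interaction of 1.64 ± 0.40 that was not called (edgeR adjusted p = 0.084). Serpinb2, an inhibitor of plasminogen activators, was at 2.19 ± 0.62 (edgeR adjusted p = 0.15), and the members with values below 0 were Mmp9, Mmp19 and Timp2. These uncalled members are named after their values were seen. The neutrophil markers, a list that holds Mmp8 itself, summed to 496 to 601 CPM in KO-labelled against 309 to 410 CPM in WT-labelled libraries at T32. That sum is therefore not separate from the values of Mmp8, and the part of neutrophils in them was not tested.

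The inflammatory gene lists held no call but that of Zbp1. Of 33 inflammatory cytokine and chemokine genes tested 0 were called (1 positive and 1 negative at an unadjusted p under 0.05), and the median was 0.32. The values with the lowest p were those of the interleukin 1 receptor antagonist Il1rn (1.09 ± 0.39, edgeR adjusted p = 0.29) and the chemokine Cxcl9 (−1.80 ± 0.83, edgeR adjusted p = 0.51). Il1rn had 1700, 1780 and 1870 CPM in KO-labelled against 371, 297 and 581 CPM in WT-labelled libraries at T32, and 111, 44.5 and 76.4 CPM in KO-labelled against 49.9, 29.4 and 36.4 CPM in WT-labelled libraries at T0, so that its difference was called at T32 without a call for the interaction. NF-kB subunits, targets and feedback genes had a median of 0.01 and 0 of 25 called (3 at an unadjusted p under 0.05), with Malt1, a paracaspase that activates NF-kB, at 0.90 ± 0.32 and the cytokine signalling inhibitor Socs3 at 0.68 ± 0.31. Toll-like receptors and adaptors had 0 of 27 called and a median of −0.24, with Tlr1 at −0.64 ± 0.25 and Tlr9 at −2.53 ± 1.02. Acute-phase and chemoattractant genes had 0 of 15 called, with Orm1 at 3.45 ± 0.98 and complement factor gene Cfb at −1.72 ± 0.53. The inflammasome and cell death list had 1 of 26 called, Zbp1, and a median of 0, with the gasdermin gene Dfna5 next at 1 ± 0.26 (edgeR adjusted p = 0.12).

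The COP1 and C/EBP lists, which bear on the known partner of the Stk40 protein, held no called interaction. RNA counts do not show protein levels. COP1 ligase parts and substrates had 0 of 22 called and a median of 0.17, with the pseudokinase gene Trib3 at 1.36 ± 0.40 (edgeR adjusted p = 0.17) and Cebpd at −1.26 ± 0.53 (edgeR adjusted p = 0.43). C/EBP-associated genes had 0 of 32 called and a median of 0.30, with the prostaglandin E synthase gene Ptges at 1.05 ± 0.28 (edgeR adjusted p = 0.12) and Orm1. At T32, KO against WT was called higher for 8 of these 32 and lower for 2, against 3.36% and 2.39% of protein-coding genes. For the 22 COP1 genes these counts were 0 and 1. Ptges had 309, 294 and 325 CPM in KO-labelled against 81.1, 69.5 and 99.6 CPM in WT-labelled libraries at T32, and 4.39, 7.65 and 6.13 CPM in KO-labelled against 3.6, 3.05 and 3.48 CPM in WT-labelled libraries at T0. Its KO minus WT difference was called at both times, at 1.89 at T32 and 0.84 at T0. In the eicosanoid list, which also holds Ptges, 0 of 16 were called and the prostaglandin receptor gene Ptger2 was at 0.75 ± 0.25.

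Arginine, nitric oxide and itaconate genes held no call. Slc7a2, an arginine transporter, had 27.5, 21.2 and 28.4 CPM in KO-labelled against 8.17, 6.2 and 9.11 CPM in WT-labelled libraries at T32, and 2.81, 1.21 and 2.31 CPM in KO-labelled against 2.47, 1.94 and 1.98 CPM in WT-labelled libraries at T0. The interaction was 1.71 ± 0.38 and missed the threshold (edgeR adjusted p = 0.051). The mitochondrial arginase Arg2 was at 1.49 ± 0.39 (edgeR adjusted p = 0.12), and 0 of 14 in that list were called. In the alternative activation list 0 of 14 were called, with the transcription factor Klf4 at 1.49 ± 0.36 (edgeR adjusted p = 0.084) and the mannose receptor Mrc1 at −0.70 ± 0.35. Klf4 had 16.4, 15.8 and 15.3 CPM in KO-labelled against 5.41, 3.82 and 6.03 CPM in WT-labelled libraries at T32, and overlapped at T0.

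Sterol genes leaned to the negative side without a call. Of 20 cholesterol synthesis and uptake genes 18 were below 0, the median was −0.42, and 0 were called (0 positive and 4 negative at an unadjusted p under 0.05). Dhcr7, the last enzyme of one branch of cholesterol synthesis, had 9.09, 8.09 and 9.28 CPM in KO-labelled against 14.3, 18 and 14.5 CPM in WT-labelled libraries at T32, and 14.4, 16 and 16.2 CPM in KO-labelled against 14, 18.7 and 13.2 CPM in WT-labelled libraries at T0 (−0.85 ± 0.24, edgeR adjusted p = 0.16). The LXR and sterol efflux list had 0 of 14 called, with Fasn at −1.09 ± 0.42 and Scd2 at −0.73 ± 0.35, which make fatty acids. Glycolysis and HIF targets had 0 of 23 called, with hexokinase 2 (Hk2) at −0.71 ± 0.17 (edgeR adjusted p = 0.084) and Pgam1 at −2.26 ± 0.56 (edgeR adjusted p = 0.099). Pgam1 was at 0.497 to 1.14 CPM in KO-labelled and 3.4 to 4.29 CPM in WT-labelled libraries at T32, and its reads, too, could be split among copies.

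Stress and organelle lists had no called member. The unfolded protein response list had a median of −0.34, with the disulfide isomerases Pdia6 at −0.78 ± 0.21 and Pdia3 at −0.58 ± 0.22. The integrated stress response list had a median of 0.32, with Cebpg at 0.50 ± 0.15 after Trib3. NRF2 targets had a median of 0.21, led by the quinone reductase Nqo1 (0.90 ± 0.24, edgeR adjusted p = 0.12), with Osgin1 next at 0.77 ± 0.25. Lysosomal genes had a median of 0.06 with cathepsins Ctsk at 1.60 ± 0.43 and Ctsl at 0.68 ± 0.24, and oxidative phosphorylation genes one of −0.09 with Atp5o at −0.37 ± 0.23 and Atp5b at −0.40 ± 0.29.

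Antigen presentation, surface and cycle lists were likewise without a call. MHC class I genes had a median of −0.22, with their transactivator Nlrc5 at −0.75 ± 0.22 and the peptide transporter Tap1 at −0.59 ± 0.25, and MHC class II genes one of 0.30, with H2-Oa at 1.23 ± 0.55 and H2-DMb2 at 0.67 ± 0.36. Macrophage identity genes had a median of −0.18, with the sialic acid receptor Siglec1 at −1.87 ± 0.59 and the Fc receptor Fcgr1 at −0.84 ± 0.29. Costimulatory and checkpoint genes had a median of 0.14, with Icosl at −0.91 ± 0.27 and Lgals9 at −1.06 ± 0.38. DNA replication genes had a median of −0.24, with Mcm6 at −0.67 ± 0.27 and E2f1 at 0.45 ± 0.19, and mitosis genes one of 0.10, with Cenpa at 1.20 ± 0.34 and Aurkb at −0.86 ± 0.35.

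**Figure D5:**
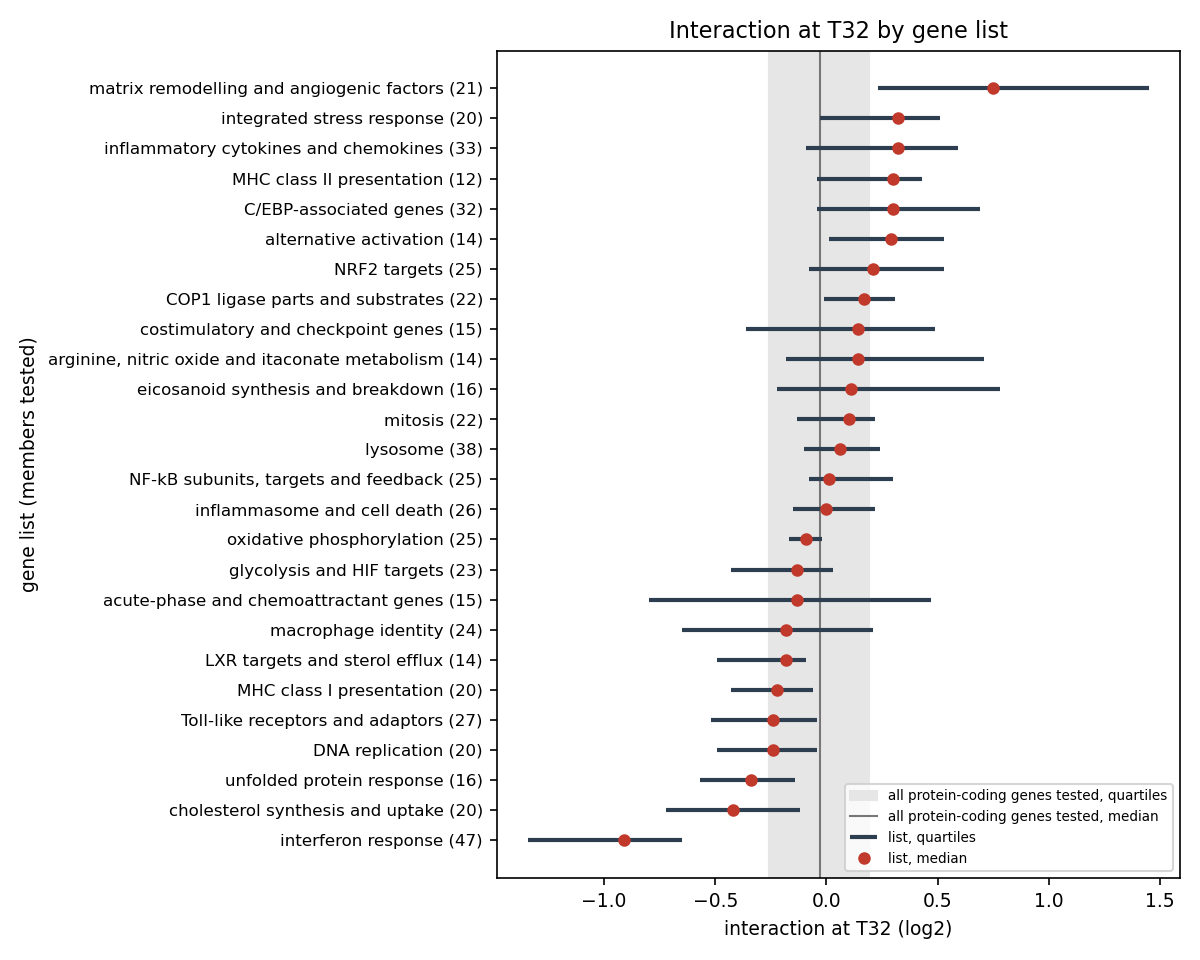
Median (red) and quartiles (dark blue lines) of the interaction at T32 (x, log2) in each of the 26 pathway lists, with the number of tested protein-coding members in brackets, beside the quartiles (grey band) and median (grey line) of all 12913 protein-coding genes. Among these 26 the interferon response list is lowest, at −0.91, and the matrix remodelling and angiogenic list highest, at 0.75.

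Some called genes lay next to each other. Slfn1, Slfn4 and Slfn3 lie in this order on chromosome 11, at 83116849 to 83122670, 83175186 to 83190216 and 83191330 to 83215154, with gaps of 52515 and 1113 bases and 0 tested genes between them. On chromosome 2, Rhov (119269201 to 119271272) and Dll4 (119325784 to 119335962) are 54511 bases apart, and the 1 tested gene between them, Vps18, was at 0.17 ± 0.17 (edgeR adjusted p = 0.90).

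Promoters of 2 genes from each side are shown because they are among those with the largest interactions and because interferon-inducible genes are known for a response element in that stretch. Each is the 300 bases from 250 before to 50 after the RefSeq start site in GRCm38.p6, 5′ to 3′ on the gene's strand, and capitals mark a match to one of the 4 searched patterns. Tspan13 is at chr12:36042429-36042728 and Htr2b at chr1:86111931-86112230, both on the minus strand, and Slfn1 is at chr11:83116570-83116869 and Slfn3 at chr11:83191080-83191379, both on the plus strand.
Tspan13: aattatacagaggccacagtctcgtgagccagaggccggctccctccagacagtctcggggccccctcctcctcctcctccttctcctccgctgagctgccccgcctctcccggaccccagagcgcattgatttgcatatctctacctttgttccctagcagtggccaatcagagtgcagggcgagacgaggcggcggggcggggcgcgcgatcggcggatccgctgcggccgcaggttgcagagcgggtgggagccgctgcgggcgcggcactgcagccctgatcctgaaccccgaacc
Htr2b: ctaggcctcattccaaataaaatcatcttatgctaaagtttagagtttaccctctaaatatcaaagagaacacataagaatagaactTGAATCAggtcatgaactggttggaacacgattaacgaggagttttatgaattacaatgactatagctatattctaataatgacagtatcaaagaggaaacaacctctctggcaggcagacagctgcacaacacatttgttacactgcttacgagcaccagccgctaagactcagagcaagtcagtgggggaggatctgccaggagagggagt
Slfn1: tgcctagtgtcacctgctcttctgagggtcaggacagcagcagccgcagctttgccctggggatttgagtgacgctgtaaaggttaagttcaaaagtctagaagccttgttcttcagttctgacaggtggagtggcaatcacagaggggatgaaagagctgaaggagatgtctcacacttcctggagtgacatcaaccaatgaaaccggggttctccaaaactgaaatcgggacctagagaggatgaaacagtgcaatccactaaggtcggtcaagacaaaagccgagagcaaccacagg
Slfn3: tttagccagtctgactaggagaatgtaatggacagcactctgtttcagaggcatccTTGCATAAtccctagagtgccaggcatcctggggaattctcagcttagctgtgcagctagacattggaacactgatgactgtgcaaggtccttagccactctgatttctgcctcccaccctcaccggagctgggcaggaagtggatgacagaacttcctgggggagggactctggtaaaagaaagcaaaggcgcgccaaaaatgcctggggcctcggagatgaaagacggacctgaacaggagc
The patterns were searched on both strands: GAAA-NN-GAAA for the interferon-stimulated response element, GGGA-NNNN-CC for NF-kB, TTGCNNAA for C/EBP and TGANTCA, which reads the same on both strands, for AP-1. None of the matches in the printed stretches overlaps another. Tspan13 and Slfn1 held no match, Htr2b held the AP-1 pattern and Slfn3 the C/EBP pattern. Promoters of Cd200 and Rnaset2a, whose interactions are also among the largest, held no match and are not printed. The interferon-stimulated response element pattern was in a promoter of 0 of the 14 positive genes and of 1 of the 19 negative genes that had a promoter in the table, against 4.11% of the 10031 protein-coding genes tested that had one. Counted per promoter, it was in 3.44% of all 32851 promoters. That match is in Ifi213, at chr1:173599330-173599351 on the minus strand, and is shown with 6 bases on either side.
Ifi213: tctgagGAAATCGAAAgctatg
The NF-kB pattern was in a promoter of 3 of 14 positive and 3 of 19 negative genes, against 30.6% of the tested genes and 20.7% of all promoters. The C/EBP pattern was in 3 of 14 and 4 of 19, against 10.3% of the tested genes and 10.8% of all promoters. The AP-1 pattern was in 2 of 14 and 2 of 19, against 6.63% of the tested genes and 7.81% of all promoters. A match is a description of letters, and its absence says only that they are not in this window.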

How the data were processed

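The authors deposited read counts per Ensembl gene for 23 libraries, which were used as deposited. Per the submitters' processing notes GSNAP and GRCm38 were used. Per the file headers a count is the number of reads uniquely aligning to a gene model, and neither the annotation nor the counter is stated there or in the labels. Libraries, per the labels' protocols, were made with the TruSeq RNA v2 kit, which does not mark strand, and read as single 50 base ends, so overlapping genes share reads.

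Genes were kept by filterByExpr (minimum count 10) and scaled by TMM, and edgeR 4.0.16 in R 4.3.3 was used to fit a mean per genotype and time over all 23 libraries by quasi-likelihood. The interaction was tested with Benjamini-Hochberg adjustment over all 15782 genes tested. Gene types came from the deposited gene table, and coordinates from GENCODE release M21 on GRCm38. SE is the size of the log2 value divided by the square root of F. The steps were tested on simulated data. Promoters are RefSeq's.

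Named genes were the called protein-coding ones averaging at least 5 CPM over the 12 libraries: the 12 largest in each direction, the 6 lowest p beside them, and for each pathway list up to 4 called members, or where fewer than 2 were called the 2 members with the lowest p. Members and lists were chosen with earlier results of these data known. Alternatives were other scalings, filters and gene sets, DESeq2 1.42.0, the 12 libraries alone, Y-linked RNA as covariate, each of the 12 libraries left out, and, added after seeing the data, a block by order of sample ids. Replicate pairs differed by more than counting noise, and none were merged. The result of 1 gene that the rule selected is not reported here.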

Additional observations from a re-analysis of the deposited data

Results flagged for a closer look

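Each of the 26 genes named by rule for its interaction is listed because the KO minus WT difference at T32 and that at T0 differed by the interaction test itself (edgeR adjusted p under 0.05). The interactions (log2) of those with a wider KO excess at T32 were 2.70 for Tspan13, 2.30 for Cd200, 2.28 for Htr2b, 2.19 for Rhov, 1.87 for Pdpn, 1.26 for F10, 1.25 for Ccr1 and 1.13 for Id2. Those of the Schlafen genes were −2.62 for Slfn3, −2.36 for Slfn1 and −2.29 for Slfn4. Other genes higher in KO-labelled libraries at T0 had −1.75 for Ifi44, −1.65 for Ms4a4c, −1.59 for Irf7, −1.54 for Klra2, −1.42 for Zbp1, −1.37 for Ifi213, −0.98 for Oasl2, −0.95 for Clec5a and −0.86 for Lair1. Genes called at T32 only had −2.36 for Rnaset2a, −1.48 for Acss2, −1.24 for Aatk, −1.16 for Rpl6, −0.95 for Slc12a7 and −0.89 for Vars. Groups of 3 libraries were not tested for a library far from the others.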

How the results depend on the processing

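All 37 called protein-coding genes kept their direction under each alternative that gave them a value, and 14 kept their call under all of them: Tspan13, Aqp9, Pdpn, Ccr1, Slfn1, Slfn3, Rnaset2a, Ifi44, Ms4a4c, Ifi213, Zbp1, Oasl2, Aatk and Slc12a7. The counts of 14 positive and 23 negative interactions moved more. DESeq2 called 71 and 96. Scaling by library totals called 39 negative ones, and Y-linked RNA as covariate 44. Leaving out a library gave 5 (without KO T32 replicate 2) to 18 positive (without KO T0 replicate 2) and 12 (without WT T0 replicate 3) to 32 negative ones (without KO T0 replicate 2).

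KO against WT at T32 was called higher for 434 and lower for 308 genes. These became 263 and 854 with library totals, which shifted the log2 values of all genes tested, of any type, by a median of −0.19. DESeq2 called 678 higher. Lower calls were 190 without a filter and 504 with the 12 libraries alone. At T0, 258 were higher and 16 lower, and DESeq2 gave 413 and 35, and no filter 8 lower. Library totals shifted the log2 values at T0 by a median of −0.15. LPS calls with library totals were 1215 higher and 5138 lower in KO-labelled and 1596 higher and 4905 lower in WT-labelled libraries. The median shifts over the same genes were −0.35 and −0.31.

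Leaving out a library gave 149 to 476 higher and 107 to 340 lower at T32, lowest without WT T32 replicate 2 in both directions. It gave 142 to 279 higher (lowest without WT T0 replicate 3) and 2 to 35 lower at T0 (lowest without KO T0 replicate 1). The causes were not tested. The median of the interferon list stayed between −1.12 and −0.73, and that of the matrix list between 0.51 and 0.93. Those of the NF-kB (−0.08 to 0.09), mitosis (−0.15 to 0.27), acute-phase (−0.35 to 0.20) and inflammasome lists (−0.04 to 0.06) changed sign. Depth limits genes of few counts: the filter at 1 CPM left no value for Dll4 and Avil.

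The replicate numbers follow the order of deposit and pair nothing. A replicate block chosen after seeing the data tied libraries of 1 genotype across times by their place in the run of sample ids, which no label says marks a mouse. The WT-labelled libraries with Y-linked RNA share a place. Deviations from the group means correlated between T32 and T0 libraries of 1 place at 0.02 to 0.08 in KO-labelled and 0.31 to 0.51 in WT-labelled pairs, and 5 of 6 T32 libraries correlated best with their own place. With this block 60 positive and 79 negative interactions were called, all 37 among them. KO against WT at one time cannot be estimated with it.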
